A study of Mus musculus with 30 samples.

Results

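The genes described here are 10 genes of fast skeletal muscle, *Tnnt3*, *Tnni2*, *Tnnc2*, *Mylpf*, *Myh1*, *Myh2*, *Myh4*, *Atp2a1*, *Actn3* and *Pvalb*, as they were read in left ventricles of mice. All 10 were found by their GENCODE symbols among the 49671 genes of the peptide study and the 56386 genes of the antibody study. The list was chosen by name with the members' levels and fold changes in these same hearts already known, so levels are given as a description and the tests on them support nothing on their own. The series holds 30 left ventricles of wild type male C57BL6J mice in 2 studies that were conducted separately. In the peptide study, 7 mice received daily intraperitoneal injections of recombinant human Aβ42, the amyloid beta peptide, and 7 mice received a scrambled control peptide, ScrAβ42, for 4 weeks. The labels give the age at the start as 12 weeks and the dose as 1 mg per day, and the study's methods as 10 to 12 weeks and 1 µg per day. In the antibody study, 8 mice received 3D6, an antibody that neutralises Aβ, and 8 mice received a control antibody. The methods describe both of these groups as 12 weeks old at baseline, injected weekly with 0.75 mg/kg of antibody during high-fat feeding. They place death 2 weeks after echocardiography at 12 weeks of feeding, and the study elsewhere gives the feeding as 4 months. The series description says that these mice were also given Aβ42. Hearts are named here by group and mouse number as in the labels, such as Abeta42_3458, 3D6_20 and Con_15. Each comparison asked what changed in the heart when circulating Aβ42 was raised or neutralised. A left ventricle holds myocytes, vessels, stroma and blood together, so fewer cells of a type and less RNA per cell cannot be told apart.

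Striated muscle shortens when myosin heads on the thick filament pull on actin in the thin filament. The troponin complex on the thin filament holds this back until calcium binds to it, and calcium is then pumped back into the sarcoplasmic reticulum. Fast skeletal fibres, slow skeletal fibres and cardiac myocytes build this machinery from different paralogues, and the genes listed here are the fast forms. In the adult ventricle the corresponding proteins come from cardiac genes such as *Myh6*, *Tnnt2*, *Tnni3* and *Atp2a2*, and fast skeletal transcripts are not usually regarded as part of its programme.

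On GRCm38, 4 of the genes lie on chromosome 7. *Tnni2* spans chr7:142441808-142444410 and *Tnnt3* spans chr7:142498836-142516009, both on the plus strand. *Mylpf* spans chr7:127208890-127214298 on the plus strand and *Atp2a1* spans chr7:126445858-126463108 on the minus strand. The 3 heavy chain genes form a cluster on the plus strand of chromosome 11, in the order *Myh2* (chr11:67171027-67197517), *Myh1* (chr11:67200052-67224575) and *Myh4* (chr11:67238029-67260446). *Tnnc2* is on chromosome 2 (chr2:164777161-164779967), *Actn3* on chromosome 19 (chr19:4861216-4877909) and *Pvalb* on chromosome 15 (chr15:78191114-78206400), all 3 on the minus strand. Antisense genes overlap 5 members, namely *Prr33* with *Tnnt3*, *Ube2c* with *Tnnc2*, *Myhas* with *Myh1*, *9430073C21Rik* with *Myh2* and *Rabep2* with *Atp2a1*. The libraries were stranded, but the sources used here do not say whether strand was used in the mapping.

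The heavy chain genes share much of their sequence, which bears on how reads are divided among them. Of the stretches of 31 bases in the longest coding transcript, 39.7% in *Myh1*, 38.5% in *Myh2* and 30.4% in *Myh4* also occur in other genes. The split of counts between these 3 genes is therefore uncertain. For the other members this share was at most 1.02%. The share that occurs in the cardiac paralogue was at most 0.74%, for *Actn3* and *Actn2*, and 0% for *Tnnt3*, *Tnni2*, *Tnnc2* and *Mylpf*.

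The bases just upstream of the start are shown for the members whose RefSeq window of 150 bases (GRCm38.p6) lies clear of the annotated gene, because neighbouring heavy chain genes were read at very different levels. Capitals mark matches, on either strand, to an E-box (CANNTG), to TATAAA, to the MEF2 site or to the CArG box, sequences bound by myogenic factors, TATA-binding protein, MEF2 and SRF.
Myh2, chr11:67170877-67171026, plus strand: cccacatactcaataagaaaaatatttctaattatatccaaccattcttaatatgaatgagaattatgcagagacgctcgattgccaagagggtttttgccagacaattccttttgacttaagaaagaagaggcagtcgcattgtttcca
Myh4, chr11:67237662-67237811, plus strand: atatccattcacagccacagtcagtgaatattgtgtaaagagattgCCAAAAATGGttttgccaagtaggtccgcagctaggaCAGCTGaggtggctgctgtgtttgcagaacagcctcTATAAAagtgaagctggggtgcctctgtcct
Pvalb, chr15:78206401-78206550, minus strand: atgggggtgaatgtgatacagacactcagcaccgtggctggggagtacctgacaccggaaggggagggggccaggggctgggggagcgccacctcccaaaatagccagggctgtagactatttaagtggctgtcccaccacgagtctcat

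The *Myh4* window holds 1 CArG box, 1 E-box and 1 TATAAA, which do not overlap each other. The windows printed for *Myh2* and *Pvalb* hold none of these letters. A second *Pvalb* window, which overlaps the annotated gene and is not printed, holds 1 E-box. Among 32851 RefSeq windows of the same length, 0.916% hold a CArG box, 47.7% an E-box, 7.57% TATAAA and 1.67% the MEF2 site. The *Myh1* window, which overlaps the annotated gene and is not printed, holds TATAAA and none of the others. A match describes letters only.

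Total counts per heart ranged from 4478991 to 6015767 in the peptide study and from 6397189 to 8310480 in the antibody study. A count of 3, taken here as the floor, corresponds to 0.411 to 0.714 CPM (counts scaled to a common library size) in the peptide study and 0.365 to 0.478 CPM in the antibody study. All 6 ventricular cardiomyocyte markers were abundant in every heart, with summed levels of 37805 to 67466 CPM in the peptide study and 36347 to 44726 CPM in the antibody study. Of 5 satellite cell and myogenic genes, *Pax7* and *Myog*, which mark satellite cells and differentiating myoblasts, were at 0 counts in all hearts of both studies. The others, *Myod1*, *Myf5* and *Myf6*, had at most 2 counts in any heart. Whether such cells were present was not tested. Summed levels of 5 atrial genes (*Sln*, *Myl7*, *Myl4*, *Bmp10* and *Mybphl*) ran from 3.81 to 8387 CPM across hearts of the peptide study.

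In the peptide study the members were read at low but countable levels in most hearts, with 2 exceptions in the Aβ42 group. Whether such low counts came from RNA of the ventricle itself, from other libraries or from another source was not tested. Of the 10 genes, 8 passed the filter for testing, a mean of 10 or more counts over all hearts of the study, and *Tnnc2* and *Myh2* did not. The levels of *Tnnt3*, *Mylpf*, *Myh1*, *Myh4*, *Actn3* and *Pvalb* were lowest in the hearts of Abeta42_3458 and Abeta42_3460. *Tnni2* and *Atp2a1* were low in Abeta42_3460 but not in Abeta42_3458, and both were highest in Abeta42_3457. *Tnnc2*, the troponin C of the same fibres, was close to absent.

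**Figure D1:**
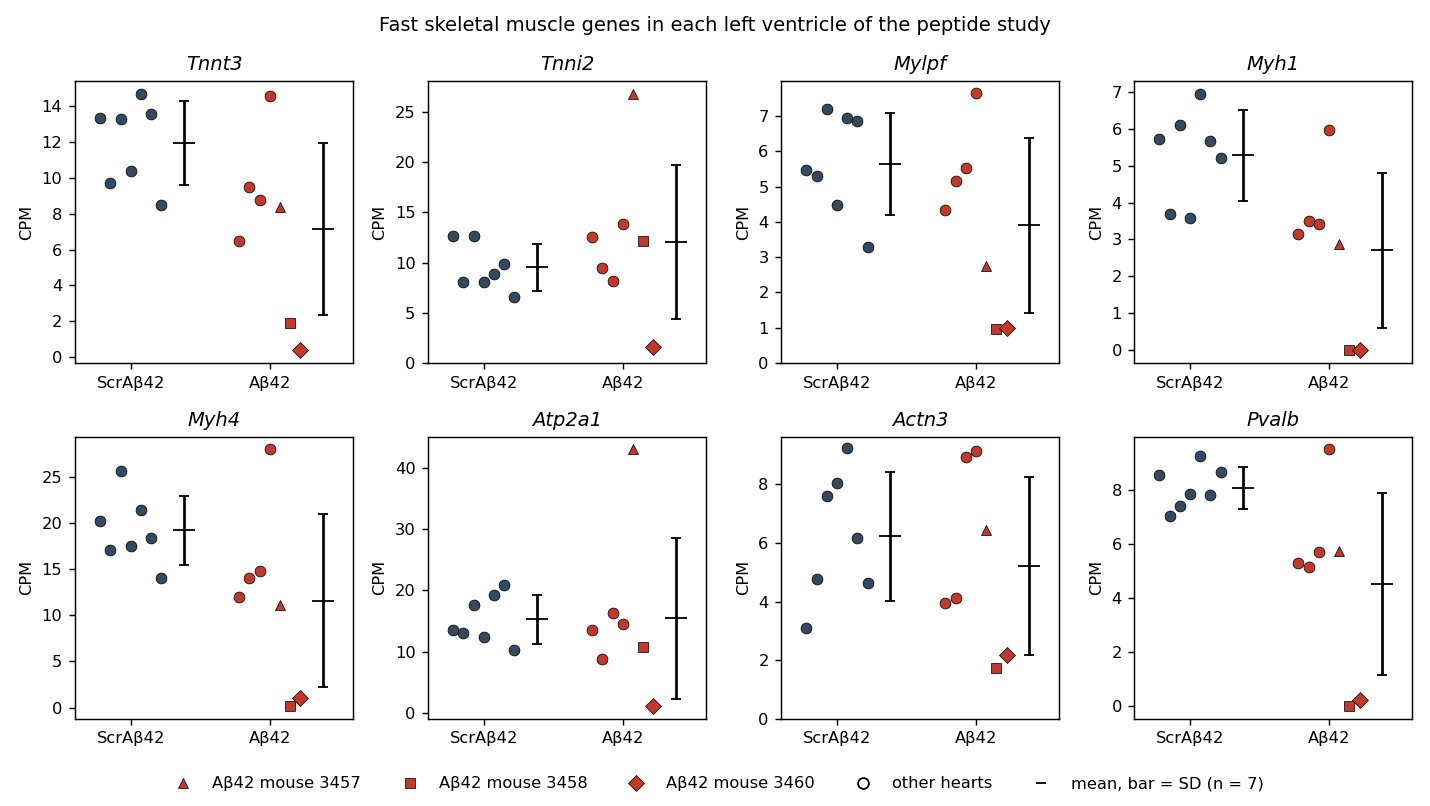
CPM of each of the 8 members that were tested, 1 point per left ventricle of the peptide study, with the mean and SD of each group of 7 beside the points. Abeta42_3458 (square) and Abeta42_3460 (diamond) lie below every other heart for 6 of the 8 genes, and Abeta42_3457 (triangle) lies above every other heart for *Tnni2* and *Atp2a1*.

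Among thick filament genes, *Myh4*, the heavy chain of the fastest (IIB) fibres, was the most counted. Its level in ScrAβ42 hearts was 14.1 CPM at the lowest, 18.4 at the median and 25.7 at the highest. In Aβ42 hearts it was 0.193 CPM at the lowest, 12.0 at the median and 28.0 at the highest. The lowest values were 1 count in Abeta42_3458 and 5 counts in Abeta42_3460, against 61 to 150 counts in the other 5 Aβ42 hearts and 73 to 118 in ScrAβ42 hearts. The exact 95% Poisson intervals of these low counts, which cover counting error only, were 0.0253 to 5.57 and 1.62 to 11.7 counts. *Myh1*, the heavy chain of IIX fibres, had 0 counts in Abeta42_3458 and Abeta42_3460, where the floor of 3 counts is 0.578 and 0.593 CPM. It had 20 to 36 counts in ScrAβ42 hearts (3.58 to 6.94 CPM, median 5.67) and a median of 3.15 CPM in Aβ42 hearts. *Myh2*, the heavy chain of IIA fibres, was read 0 to 5 times per heart, 23 counts over all 14 hearts. *Mylpf*, the regulatory light chain of fast myosin, ran from 3.28 to 7.19 CPM in ScrAβ42 hearts (median 5.48) and from 0.963 to 7.65 CPM in Aβ42 hearts (median 4.33), with 5 counts in each of Abeta42_3458 and Abeta42_3460.

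In the thin filament, *Tnnt3*, the fast troponin T that anchors the complex to tropomyosin, ranged from 8.49 to 14.7 CPM in ScrAβ42 hearts (median 13.3). In Aβ42 hearts it ranged from 0.396 to 14.6 CPM (median 8.35). The lowest values were 2 counts in Abeta42_3460 and 10 counts in Abeta42_3458, and the others had 33 to 78. *Tnni2*, the fast troponin I that holds back contraction at rest, ranged from 6.56 to 12.6 CPM in ScrAβ42 hearts (median 8.87) and from 1.58 to 26.8 CPM in Aβ42 hearts (median 12.1). Only Abeta42_3460, with 8 counts, lay below the ScrAβ42 range, and Abeta42_3457, with 196 counts, lay furthest above it. *Tnnc2*, the calcium-binding subunit, had 0 or 1 count in every heart, 4 counts in all. The groups overlapped for each of these genes, beside 0.0918% of all genes tested with groups apart in CPM.

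Of the genes that handle calcium, *Atp2a1* encodes the fast sarcoplasmic reticulum pump SERCA1. Its level was 10.2 to 20.9 CPM in ScrAβ42 hearts (median 13.6) and 1.19 to 43.0 CPM in Aβ42 hearts (median 13.6). The highest heart was Abeta42_3457 with 314 counts, the lowest was Abeta42_3460 with 6 counts, and Abeta42_3458 had 56 counts, inside the range of the ScrAβ42 hearts. *Pvalb* encodes parvalbumin, a soluble calcium buffer of fast fibres. It showed the narrowest range of the tested members in ScrAβ42 hearts, 7.05 to 9.26 CPM (median 7.88). In Aβ42 hearts it was at 0 counts in Abeta42_3458, 1 count in Abeta42_3460 and 25 to 51 counts in the other 5, with a median of 5.31 CPM. *Actn3*, the α-actinin of fast fibre Z-discs, ranged from 3.10 to 9.26 CPM in ScrAβ42 hearts (median 6.18) and from 1.73 to 9.15 CPM in Aβ42 hearts (median 4.12), with 9 counts in Abeta42_3458 and 11 in Abeta42_3460.

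**Figure D2:**
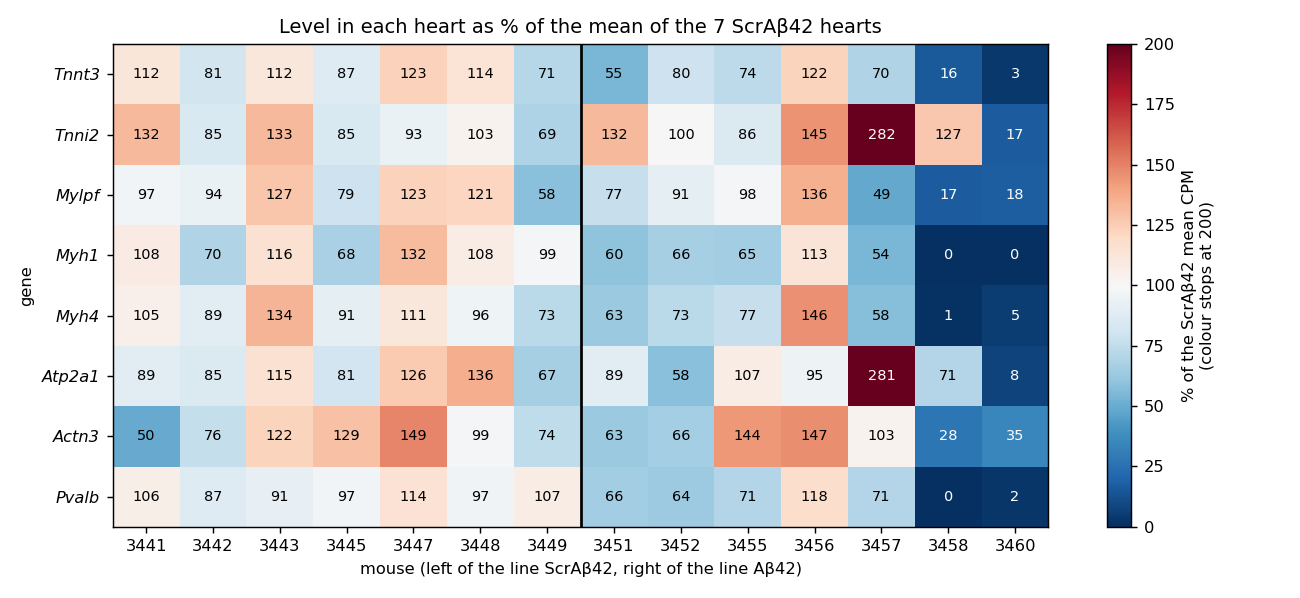
Level of each tested member (rows) in each heart of the peptide study (columns) as a percentage of the mean CPM of the 7 ScrAβ42 hearts, with the rounded percentage written in each cell. Columns Abeta42_3458 and Abeta42_3460 are at 35% or less for every gene except *Tnni2* (127%) and *Atp2a1* (70.6%) in Abeta42_3458, and column Abeta42_3457 reaches 282% and 281% for these genes.

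Set against the ScrAβ42 mean, Abeta42_3460 held 0% of the level of *Myh1*, 2.44% of *Pvalb*, 3.32% of *Tnnt3* and 5.15% of *Myh4*. It held 7.77% of *Atp2a1*, 16.6% of *Tnni2*, 17.5% of *Mylpf* and 34.9% of *Actn3*. Abeta42_3458 held 0% of *Myh1* and *Pvalb*, 1.00% of *Myh4*, 16.2% of *Tnnt3*, 17.1% of *Mylpf* and 27.8% of *Actn3*. The lowest of the other 12 hearts was at 48.5% to 68.9% of the ScrAβ42 mean, depending on the gene. These hearts were not shallow, with 5092380 counts in Abeta42_3458 and 5321160 in Abeta42_3460. Their summed ventricular markers, 53024 and 63664 CPM, and their shares of mitochondrial counts, 18.4% and 17.3%, lay within the range of the other hearts.

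The spread among ScrAβ42 hearts differed between the members. The chi-square of a gene's counts per degree of freedom is about 1 when hearts differ by counting error alone, and its median over 8024 genes of a mean of 10 to 200 counts in these hearts was 1.72. It was 0.389 for *Pvalb*, lower than in all but 3.55% of those genes, 1.57 for *Myh1*, 1.94 for *Mylpf*, 2.44 for *Tnnt3* and 2.76 for *Tnni2*. It was 3.53 for *Myh4*, 3.76 for *Actn3* and 5.60 for *Atp2a1*, so that all tested members but *Pvalb* and *Myh1* lay above the median gene. In the Aβ42 hearts, where the median over genes was 2.02, it rose to 12.9 for *Pvalb*, 39.6 for *Myh4* and 66.3 for *Atp2a1*.

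In ScrAβ42 hearts *Myh4* made up 23.5% ± 1.92 (SD, n = 7) of the counts on the 10 genes, *Atp2a1* 18.6% ± 2.41, *Tnnt3* 14.6% ± 0.91, *Tnni2* 11.7% ± 1.96 and *Pvalb* 10.2% ± 2.05. All 10 genes together took 0.00574% to 0.00997% of a ScrAβ42 heart's counts. These shares depend on transcript length, so levels were also compared per kilobase of the longest coding transcript.

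Per length, *Tnni2* stood highest in ScrAβ42 hearts at 12.4 ± 3.04 CPM per kb (SD, n = 7), followed by *Tnnt3* at 11.04 ± 2.17, *Pvalb* at 8.29 ± 0.794 and *Mylpf* at 7.37 ± 1.89. *Atp2a1* followed at 4.396 ± 1.14, *Myh4* at 3.19 ± 0.615, *Actn3* at 2.16 ± 0.762 and *Myh1* at 0.867 ± 0.203. *Tnnc2* and *Myh2* came last at 0.117 ± 0.147 and 0.0611 ± 0.0506 CPM per kb. The ranges of all neighbours in this order overlapped except those of *Myh1* and *Tnnc2*. Within single hearts, each of *Mylpf*, *Atp2a1*, *Myh4* and *Actn3* exceeded the next gene in 7 of 7. Among the troponins, *Tnnc2* was at most 0.311 CPM per kb in any ScrAβ42 heart.

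The fast forms were a minute fraction of their cardiac counterparts. Per length, *Tnni2* was at 0.310% ± 0.0892 (SD, n = 7) of cardiac troponin I, *Tnni3*, in ScrAβ42 hearts, and *Actn3* at 0.262% ± 0.0962 of *Actn2*. *Tnnt3* was at 0.148% ± 0.0381 of *Tnnt2*, *Atp2a1* at 0.135% ± 0.0512 of *Atp2a2* and *Mylpf* at 0.120% ± 0.0516 of *Myl2*. *Myh4* was at 0.0590% ± 0.0149 of *Myh6*, the cardiac α heavy chain, *Myh1* at 0.0159% ± 0.0045 and *Tnnc2* at 0.00456% ± 0.00578 of *Tnnc1*. Of the 12 cardiac counterparts, 0 passed the edgeR test between Aβ42 and ScrAβ42, beside 0% of all genes tested. Among them 1 had an unadjusted p under 0.05, beside 6.51% of all genes. The log2 fold change was below 0 for 10 of the 12, beside 49.5% of all genes, with a median of -0.10. The most abundant, *Myh6*, *Atp2a2* and *Tnnt2*, had log2 fold changes of -0.12 (SE 0.13), -0.08 (SE 0.11) and 0.06 (SE 0.12).

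No member passed the test between Aβ42 and ScrAβ42. None of the 8 tested members had an adjusted p under 0.05 in edgeR's quasi-likelihood test, beside 0% of all 11985 genes tested, and none had an unadjusted p under 0.05, beside 6.51% of all genes (780 genes, 2.91% lower and 3.6% higher with Aβ42). DESeq2 called 12 genes in all and none of the members. The estimated log2 fold change lay below 0 for 6 of the 8, beside 49.5% of all genes, with a median of -0.63 over the 8 and 0.0016 over all genes. For 0 of the 8 genes were the groups apart in CPM, beside 0.0918% of all genes.

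The estimates below 0 were -0.95 for *Myh1* (SE 0.51, unadjusted p = 0.0838, adjusted p = 0.783), -0.83 for *Pvalb* (SE 0.49, unadjusted p = 0.110, adjusted p = 0.806) and -0.73 for *Tnnt3* (SE 0.40, unadjusted p = 0.0909, adjusted p = 0.787), all by edgeR with Benjamini-Hochberg adjustment. They were -0.72 for *Myh4* (SE 0.50, adjusted p = 0.839), -0.53 for *Mylpf* (SE 0.37, adjusted p = 0.839) and -0.25 for *Actn3* (SE 0.35, adjusted p = 0.939). The estimate was 0.37 for *Tnni2* (SE 0.36, adjusted p = 0.899) and 0.04 for *Atp2a1* (SE 0.43, adjusted p = 0.991). With no filter on low counts, *Tnnc2* gave -1.08 (SE 0.90, adjusted p = 0.702) and *Myh2* gave -0.64 (SE 0.64, adjusted p = 0.741) over 25203 genes, from 4 and 23 counts in all.

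The sizes of these estimates rested on Abeta42_3458 and Abeta42_3460. Without both of them, a choice made after seeing the data, the log2 fold changes were -0.48 for *Myh1*, -0.36 for *Pvalb*, -0.32 for *Tnnt3*, -0.26 for *Myh4* and -0.16 for *Mylpf*, and they were 0.06 for *Actn3*, 0.35 for *Atp2a1* and 0.60 for *Tnni2*. None of the adjusted p-values from edgeR was then below 0.754, although *Pvalb* and *Tnni2* had unadjusted p of 0.0421 and 0.0449, beside 6.53% of all genes under 0.05 in that fit. Without Abeta42_3456 the estimates were lower for 7 of the 8 members, at -1.11 for *Myh4*, and 5 members had unadjusted p under 0.05 with adjusted p of at least 0.612, beside 7.7% of all genes with unadjusted p under 0.05 in that fit. *Atp2a1* and *Tnni2* rested on Abeta42_3457 in turn, and without that mouse their estimates were -0.49 (adjusted p = 0.967) and 0.03 (unadjusted p = 0.934). A two-sided exact permutation test of the mean log2 CPM, which weighs each heart equally, gave unadjusted p of 0.00583 for *Pvalb* (difference -1.47), 0.0117 for *Myh1* (-1.43), 0.0291 for *Tnnt3* (-1.15) and 0.0437 for *Myh4* (-1.50). It gave 0.121 for *Mylpf*, 0.344 for *Actn3*, 0.560 for *Atp2a1* and 0.919 for *Tnni2*, and 6.1% of all genes had p under 0.05 in this test. These p-values are not adjusted for the genes tested and come from genes listed after their values were known.

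**Figure D3:**
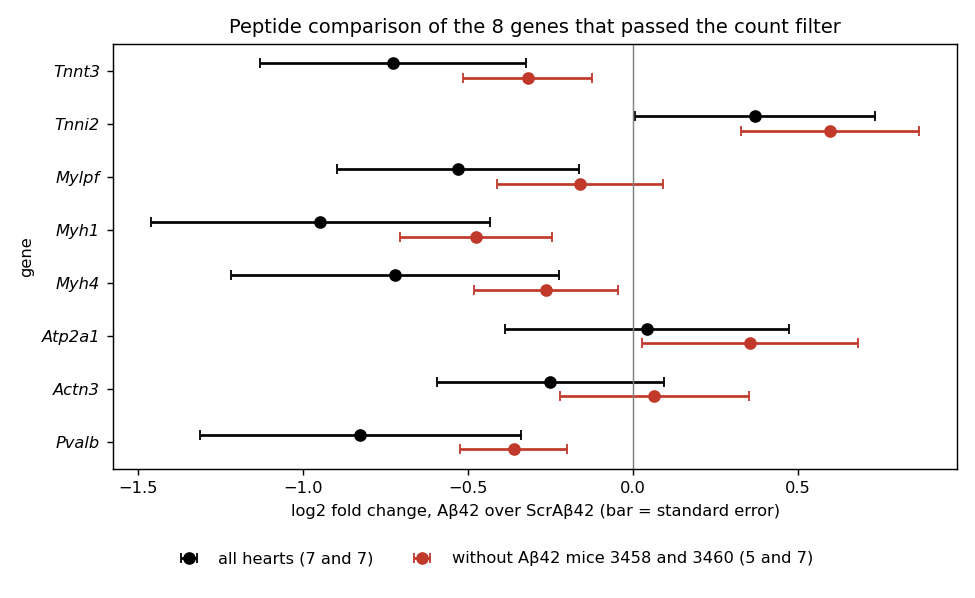
Log2 fold change of Aβ42 over ScrAβ42 for the 8 tested members by edgeR, with the standard error, for all hearts (black) and without Abeta42_3458 and Abeta42_3460 (red). All bars without these mice sit to the right of those for all hearts, and *Actn3* moves from -0.25 to 0.06.

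Summed over the 10 genes, the level was 62.9 ± 36.5 CPM (SD, n = 7) in Aβ42 hearts and 81.6 ± 14.3 CPM in ScrAβ42 hearts, a difference of -18.7 CPM beside a pooled SD of 27.7. ScrAβ42 hearts ran from 61.6 to 98.0 CPM. The lowest Aβ42 hearts were Abeta42_3460 at 7.71 CPM, or 39 counts, and Abeta42_3458 at 27.7 CPM, or 144 counts. The other 5 ran from 60.2 to 107 CPM, with Abeta42_3457 highest. Without Abeta42_3458 and Abeta42_3460 the difference was -0.65 CPM.

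*Tnni2* and *Atp2a1* were treated as a pair after their levels in these same hearts were seen. A high share of the pair in Abeta42_3458 and Abeta42_3457 follows from that choice and supports nothing on its own. The pair made up 82.6% of the members' counts in Abeta42_3458 (119 of 144) and 65.1% in Abeta42_3457 (510 of 784). The share was 42.4% in Abeta42_3451 (133 of 314), 35.9% in Abeta42_3460 (14 of 39), 34.3% in ScrAbeta42_3448 (184 of 537) and 34.2% in Abeta42_3455 (129 of 377). In the other 8 hearts it was 27.3% to 31.7% (110 of 347 at the highest). The shares of Abeta42_3460, ScrAbeta42_3448 and Abeta42_3455 lay close to that highest value, and whether they exceed it beyond counting error was not tested. The 6 hearts named here were also those with the most atrial RNA, and all of them but ScrAbeta42_3448 were Aβ42 hearts. The groups compared thus differed in atrial RNA, with a median summed level of 1154 CPM in Aβ42 and 10.5 CPM in ScrAβ42 hearts. The summed level of the 5 atrial genes was 8387 CPM in Abeta42_3457, 4690 in Abeta42_3455, 4342 in Abeta42_3458, 3652 in ScrAbeta42_3448, 1154 in Abeta42_3451 and 158 in Abeta42_3460, and 3.81 to 31.7 CPM in the other 8. Abeta42_3457 further had the highest sum of 6 adipose genes, 614 CPM against 27.8 to 184 in the other hearts, including 1805 counts of *Ucp1*, the uncoupling protein of brown fat. The CPM of *Atp2a1* did not follow atrial RNA in the same way, at 1.19 CPM in Abeta42_3460 and 19.3 CPM in ScrAbeta42_3447, which had little of it. In Abeta42_3458 the share was high with the other 8 members at 25 counts together, while *Tnni2* and *Atp2a1* were at 127% and 70.6% of the ScrAβ42 mean. The part of atrial or adipose RNA in these values was not tested.

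**Figure D4:**
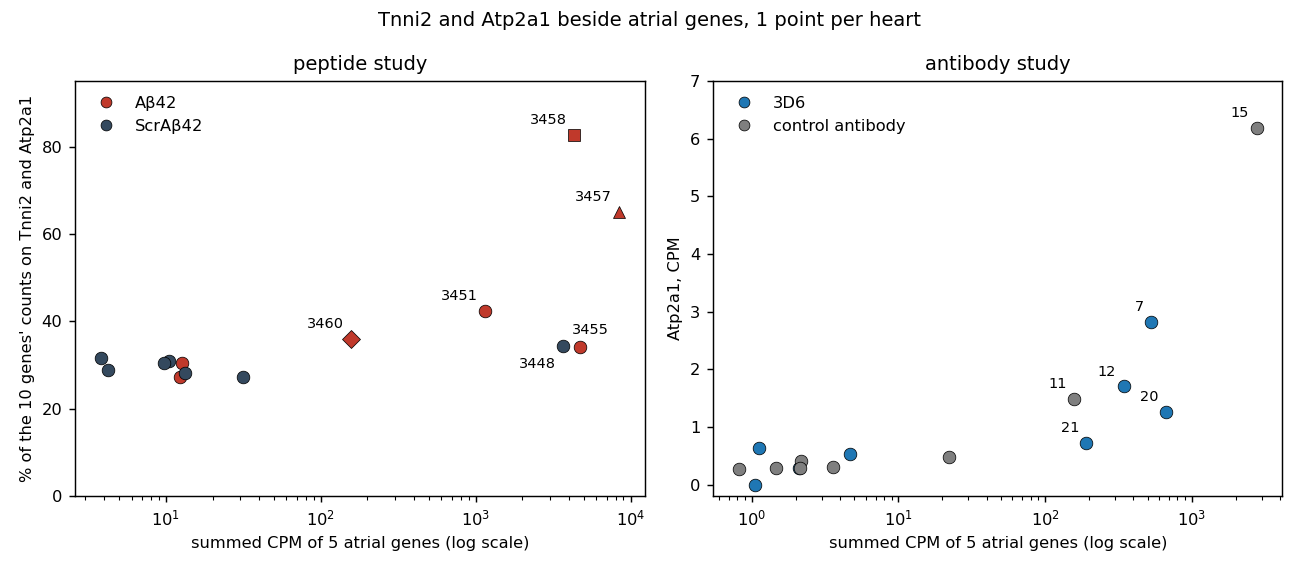
Each point is a left ventricle, placed by the summed CPM of 5 atrial genes on a log scale. On the left, the share of the 10 genes' counts that fell on *Tnni2* and *Atp2a1* in the peptide study; on the right, *Atp2a1* in CPM in the antibody study. The hearts with the most atrial RNA, labelled by mouse number, had shares of 34.2% to 82.6% in the peptide study, against at most 31.7% in the others. In the antibody study they had 0.724 to 6.18 CPM of *Atp2a1*, against at most 0.637 CPM in the others. At the closest this was 5 counts against 4.

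Of 17 further skeletal muscle genes, 11 were tested in the peptide study, 0 passed the test in either direction, and 3 had an unadjusted p under 0.05, beside 6.51% of all genes. The log2 fold change was below 0 for 7 of the 11, beside 49.5% of all genes, with a median of -0.26. The 3 were *Casq1*, the calcium store of the reticulum (-0.95, SE 0.32, adjusted p = 0.690 by edgeR), *Mybpc2*, fast myosin binding protein C (-0.73, SE 0.29, adjusted p = 0.703) and *Klhl41*, a sarcomere chaperone (-0.16, SE 0.07, adjusted p = 0.739). The most abundant of the list were *Myot*, the Z-disc protein myotilin, at 83.4 ± 40.4 CPM (SD, n = 7) in Aβ42 and 121 ± 28.5 CPM in ScrAβ42 hearts (-0.54, SE 0.27, adjusted p = 0.773), *Klhl41* at 84.5 and 94.3 CPM, and *Mybpc2* at 28.6 and 47.3 CPM. *Casq1*, *Myl1* and *Ucp1* are named here after their values were seen. *Myl1*, the alkali light chain that partners *Mylpf* in fast myosin, had its highest level in Abeta42_3457 (113 CPM) and stood at 68.6 CPM in Abeta42_3458 and 70.6 CPM in ScrAbeta42_3448. In ScrAβ42 hearts its median was 14.5 CPM. *Ryr1*, the skeletal calcium release channel, was at 2 counts in Abeta42_3458 and 3 counts in Abeta42_3460 and at up to 22 counts elsewhere. Summed over all 17 genes, Abeta42_3458 and Abeta42_3460 stood at 299 and 363 CPM. The other Aβ42 hearts ran from 245 to 335 CPM and the ScrAβ42 hearts from 314 to 449 CPM. The embryonic, neonatal and extraocular myosins *Myh3*, *Myh8* and *Myh13* summed to at most 1.502 CPM, and 7 genes of myogenic cells to at most 0.787 CPM, in any heart of the peptide study. Their most abundant genes were *Myh8*, at a mean of 0.346 CPM in Aβ42 and 0.215 CPM in ScrAβ42 hearts, and *Musk*, at 0.114 and 0.0998 CPM. None of these genes reached the count minimum. Of 6 slow skeletal and ventricular genes, 5 were tested, 0 passed, and 1 had an unadjusted p under 0.05, beside 6.51% of all genes. The log2 fold change was below 0 for 4 of the 5, beside 49.5% of all genes, with a median of -0.20. The most abundant of these, *Myl2*, *Myl3* and *Tnnc1*, had log2 fold changes of -0.20 (SE 0.33), -0.22 (SE 0.31) and -0.08 (SE 0.18), with adjusted p of 0.943 to 0.961 by edgeR.

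The genes whose log2 CPM over the 14 hearts was most like the mean standardised level of the 8 tested members were ranked by Pearson's r. They were *Rnf111* (0.88), *Ryr1* (0.87), *Arid1a* (0.82), *Rps6ka1* (0.82), *Rexo1* (0.79), *Klf6* (0.78), *Cd81* (0.78) and *Zbtb39* (0.77). Spearman's rho was lower, 0.56 for *Rnf111*, 0.68 for *Ryr1* and 0.38 for *Klf6*, and without Abeta42_3458 and Abeta42_3460 r fell to between -0.01 and 0.49 for the 8 genes. *Ryr1* was the only skeletal muscle gene among them.

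In the antibody study the members were close to the floor. No member reached a mean of 10 counts per heart, so 0 of the 10 were tested, beside 0 of 12274 genes called (0%) in the same edgeR fit and 447 genes (3.64%) with an unadjusted p under 0.05, 2.32% lower and 1.32% higher with 3D6. Of all genes tested there, 52.6% had a log2 fold change below 0. *Tnni2* and *Atp2a1* were the most counted, with means of 7.19 and 8.06 counts per heart. The heavy chains were nearly absent, with 2 counts of *Myh1*, 4 of *Myh2* and 3 of *Myh4* in all 16 hearts together.

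*Tnni2* was detected in all 16 hearts, at 0.399 to 1.54 CPM with 3D6 (median 0.981) and 0.156 to 3.36 CPM with the control antibody (median 0.610). The highest were Con_15 with 25 counts and Con_22 with 2.13 CPM. *Atp2a1* was at 0 to 2.82 CPM with 3D6 (median 0.681) and 0.273 to 6.18 CPM with the control antibody (median 0.359). Con_15 stood above all others with 46 counts, followed by 3D6_7 with 20 and 3D6_12 with 14. *Mylpf* was at 0 to 6 counts per heart, with medians of 3.00 counts with 3D6 and 2.50 counts with the control antibody. *Tnnt3* had 0 to 4 counts in every heart but 3D6_20, where it had 17, all on the coding transcript *Tnnt3-225*. *Pvalb* reached at most 5 counts, *Actn3* and *Tnnc2* at most 3. The groups overlapped for every member, beside 0 of the 12274 genes tested (0%) with groups apart in CPM.

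In this study the highest levels of *Atp2a1* were in hearts with atrial RNA, at low counts. The summed atrial level was 2768 CPM in Con_15, 666 in 3D6_20, 529 in 3D6_7, 344 in 3D6_12, 192 in 3D6_21 and 159 in Con_11, and at most 22.3 CPM in the other 10. *Atp2a1* was 6.18, 1.26, 2.82, 1.70, 0.724 and 1.48 CPM in these 6 hearts (46, 9, 20, 14, 5 and 11 counts) and 0 to 0.637 CPM in the other 10. The gap was narrow, with 5 counts in 3D6_21 against 4 in 3D6_4 and 3D6_16, near the floor of 3 counts. *Myl1* was likewise highest in Con_15 (106 CPM) and 3D6_20 (77.3 CPM), against medians of 15.6 and 18.2 CPM in their groups. The share of the members' counts on *Tnni2* and *Atp2a1* was 88.8% in Con_15, 84.6% in 3D6_12, 82.1% in 3D6_7, 80.0% in 3D6_21, 66.7% in Con_11 and 46.5% in 3D6_20, and 37.5% to 70.0% in the other 10. The 4 highest shares were thus in hearts with atrial RNA, and those of Con_11 and 3D6_20 lay within the range of the other 10. *Tnni2* was 3.36 CPM in Con_15, 1.54 in 3D6_20, 1.01 in 3D6_21, 0.972 in 3D6_12, 0.423 in 3D6_7 and 0.405 in Con_11. The first 2 were the highest of their groups, and 3D6_12, 3D6_7 and Con_11 lay below the medians of theirs. The median summed atrial level was 98.2 CPM with 3D6 and 2.87 CPM with the control antibody. The part of atrial RNA in these values was not tested.

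With no filter on low counts, the log2 fold changes of 3D6 over the control antibody ranged from -1.79 for *Tnnc2* (SE 0.92, unadjusted p = 0.0645, adjusted p = 0.720 by edgeR over 25112 genes, from 7 counts in all) to 0.93 for *Tnnt3* (SE 0.74, adjusted p = 0.720). *Tnni2* gave -0.15 (SE 0.47, adjusted p = 0.954) and *Atp2a1* -0.28 (SE 0.66, adjusted p = 0.923). The differences in mean log2 CPM had the other sign for these genes, at 0.14 for *Tnni2* and 0.10 for *Atp2a1*. Two-sided exact permutation tests of the mean log2 CPM, 8 hearts against 8, gave unadjusted p of 0.306 for *Actn3*, 0.323 for *Tnnc2*, 0.467 for *Myh2*, 0.580 for *Tnnt3* and 0.723 to 1 for the other 6. No difference between 3D6 and control hearts was detected in these genes at these counts.

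Summed over the 10 genes, the level was 3.17 ± 1.30 CPM (SD, n = 8) with 3D6 and 3.44 ± 3.29 CPM with the control antibody, a difference of -0.27 CPM beside a pooled SD of 2.50. Values ran from 2.13 to 6.03 CPM with 3D6 and from 1.24 to 10.8 CPM with the control antibody. The sign rested on Con_15 (10.8 CPM) and Con_22 (5.68 CPM), since the difference was 0.77 CPM without Con_15 and 0.05 CPM without Con_22. Of the further skeletal muscle genes, 9 of 17 were tested and 0 passed in either direction, beside 0% of all genes tested. Among them 1 had an unadjusted p under 0.05, beside 3.64% of all genes. The log2 fold change was below 0 for 4 of the 9, beside 52.6% of all genes, with a median of 0.0029. The most abundant genes of this list were *Klhl41* (0.32, SE 0.13, unadjusted p = 0.0259, adjusted p = 0.946 by edgeR), *Myot* (-0.0018, SE 0.27) and *Myl1* (-0.09, SE 0.48). Of the 12 cardiac counterparts, 0 passed and 0 had an unadjusted p under 0.05, beside 0% and 3.64% of all genes. The log2 fold change was below 0 for 7 of the 12, beside 52.6% of all genes, with a median of -0.06.

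**Figure D5:**
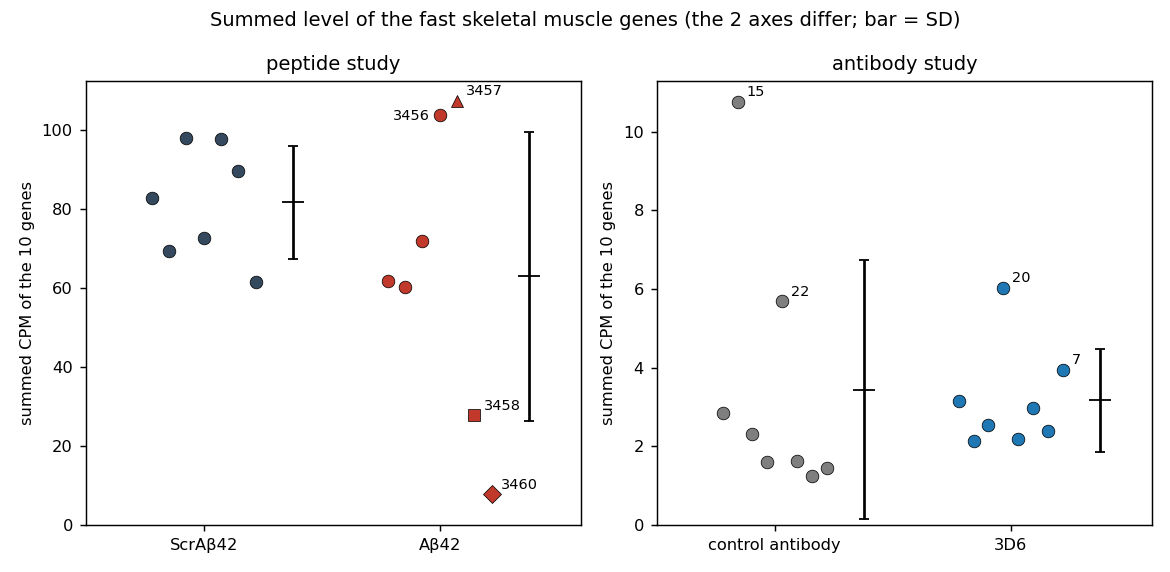
Summed CPM of the 10 genes in each heart, with the mean and SD of each group, for the peptide study (left, groups of 7) and the antibody study (right, groups of 8) on separate axes. Hearts Abeta42_3458 and Abeta42_3460 lie at 27.7 and 7.71 CPM below the ScrAβ42 range, and Con_15 and Con_22 lie at 10.8 and 5.68 CPM.

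Side by side, the levels in the peptide study were higher for the 8 genes above the floor there. The 2 tables were normalised separately and quantified per gene in one and per transcript in the other, and age, diet, treatment and batch differ between them, so these cannot be told apart and no test was made. *Myh4* averaged 15.4 CPM over the 14 hearts of the peptide study and 0.0288 CPM over the 16 of the antibody study. *Myh1* averaged 3.99 and 0.0176 CPM, *Pvalb* 6.31 and 0.124 CPM, *Actn3* 5.72 and 0.124 CPM, and *Tnnt3* 9.52 and 0.410 CPM. *Tnni2* averaged 10.8 and 1.01 CPM and *Atp2a1* 15.4 and 1.10 CPM. *Mylpf* averaged 4.77 and 0.387 CPM. For *Tnnc2*, at 0.0557 and 0.0615 CPM, and *Myh2*, at 0.302 and 0.0359 CPM, both studies were under the floor of 3 counts.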

How the data were processed

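Left ventricular total RNA from 30 mice was sequenced from stranded libraries. The authors trimmed the reads, quantified them by Salmon against GENCODE vM24 transcripts, and deposited whole-number counts per Ensembl gene for the peptide study and estimated counts per transcript for the antibody study, neither normalised. How the gene counts were summed is not given in the sources used here. There was 1 count column of the peptide study that matched no labelled sample, and it was not used. Estimated counts were summed to genes through GENCODE vM21 of the same build (99.21% of transcripts listed) and rounded; the 1123 transcripts it does not list (0.38% of counts) kept their own IDs.

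Groups came from the labels and each study was fitted alone. Genes with a mean of 10 or more counts over all hearts of a study were normalised by TMM. They were tested in edgeR 4.0.16 (R 4.3.3) by a two-sided quasi-likelihood test. The p-values were adjusted by Benjamini-Hochberg over all genes tested, with a threshold of 0.05. The standard error was the log2 fold change divided by the square root of F. Log2 CPM used a prior count of 2. The fit was tested on simulated counts. Alternatives were DESeq2 1.42.0, RLE size factors, other filters, leaving out each heart, exact permutation tests, and, for sums, CPM of the total count and medians. Every pair of hearts in a group differed by more than sampling noise (chi-square per degree of freedom at least 3.36).

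The genes named are the 10 members, their cardiac paralogues, up to 3 genes of highest mean CPM in each comparison list, and up to 8 genes most like the members over hearts; others are said to have been picked after their values were seen. Likeness was to be taken over both studies, but no member passed the filter in the antibody study, so it was applied to the peptide study. The members and all lists were chosen with earlier results of these data known. Of the remaining marker lists, thymus genes summed to at most 0.529 CPM, lung and airway genes to at most 6.18, cartilage and tendon genes to at most 109, mesothelial genes to at most 174 and red cell genes to at most 15889 CPM in any heart of either study; their part in the members' levels was not tested. Positions are 1-based on GRCm38.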

Additional observations from a re-analysis of the deposited data

Results flagged for a closer look

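Within groups of 7 or 8 hearts, 44 sets of values (each member and the sum, in each group) were searched for outlying hearts. A highest or lowest heart was flagged where it was set apart from the rest by Dixon's criterion at 95%. There were 14 such values. The criterion's nominal rate of about 1 in 20 sets is for normally spread, independent values. Many sets here are low counts with zeros, where a single nonzero value always meets it, and the sums share the members' values. The 14 therefore cannot be set against that rate. In the peptide study, *Atp2a1* in Abeta42_3457 stood at 42.98 CPM, with the next heart at 16.4 CPM. No value of Abeta42_3458 or Abeta42_3460 met the criterion. For 6 of the tested members these were the 2 lowest hearts, and a criterion for a single heart cannot show 2 that lie low together. In the antibody study, *Tnnt3* stood at 2.38 CPM in 3D6_20 with the next at 0.599, and *Atp2a1* at 6.18 CPM in Con_15 with the next at 1.48. *Pvalb* stood at 0.565 CPM in 3D6_24 (4 counts) and at 0.711 CPM in Con_22 (5 counts). The summed level stood at 6.03 CPM in 3D6_20 and at 10.75 CPM in Con_15.

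The remaining 7 were values of 1 or 2 counts in a group otherwise at 0, below the floor of 3 counts. These were *Tnnc2* in Abeta42_3452 (0.206 CPM) and 3D6_17 (0.150 CPM), *Myh1* in 3D6_20 (0.140 CPM) and Con_22 (0.142 CPM), *Myh2* in 3D6_20 (0.140 CPM), and *Myh4* in 3D6_4 (0.319 CPM) and Con_22 (0.142 CPM).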

How the results depend on the processing

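The count of members called in the peptide study was 0 under DESeq2, RLE size factors, each filter and each heart left out. In the antibody study no member passed the filter, so only the fit with no filter could call one, and it called 0. Over all genes, the count called in the peptide study was 12 with DESeq2, 0 in the main analysis and between 0 and 3 with 1 heart left out. *Atp2a1* changed sign to -0.49 without Abeta42_3457, to -0.01 (-0.00526) without ScrAbeta42_3445, to -0.03 without ScrAbeta42_3449 and to -0.42 in the exact permutation test of mean log2 CPM (unadjusted p = 0.560), and *Actn3* to 0.064 without Abeta42_3458 and Abeta42_3460, where *Atp2a1* was 0.35. With 1 heart left out, the log2 fold change lay between -0.44 and -0.10 for *Actn3*, -0.49 and 0.24 for *Atp2a1*, and 0.03 and 0.56 for *Tnni2*, and stayed below 0 for *Myh1*, *Myh4*, *Mylpf*, *Pvalb* and *Tnnt3*, and no member's adjusted p was below 0.558. Without Abeta42_3456 the estimates were -1.26 for *Myh1*, -1.11 for *Myh4*, -1.11 for *Pvalb*, -0.998 for *Tnnt3* and -0.78 for *Mylpf*, with unadjusted p by edgeR of 0.0252 to 0.0462. The difference of the summed level in the antibody study was 0.78 CPM with medians, and between -0.68 and 0.77 CPM with 1 heart left out. In the peptide study it stayed between -26.1 and -9.52 CPM with 1 heart left out. With at least 10 counts in every heart, no member was left to test, and in the antibody study no member had a main estimate to compare. No paired analysis was possible because the groups compared share no mouse numbers. In the antibody study 8 of 10 members averaged fewer than 3 counts per heart although its libraries were deeper, so counting error limits what can be seen of them.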
